A study of Mus musculus with 4 samples.

Results

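Splenic CD8 T cells from mice were profiled on 4 arrays, and each treatment held an array numbered 1 and an array numbered 2. The arrays numbered 1 (TCDD1 and DMSO1) were set against those numbered 2 (TCDD2 and DMSO2), with the treatment kept as a block. Genes were then chosen by these differences: a gene was kept where its array numbered 2 was at least 2-fold above, or at least 2-fold below, its array numbered 1 within TCDD and also within DMSO. This gave 69 of 12393 genes, 60 lower and 9 higher in the arrays numbered 2. Because the choice used these values, they are a description. Tests between the numbers over all probe sets are given as background and support no statement on a member.

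All mice were female C57BL/6 animals of 8 to 12 weeks. TCDD, a persistent dioxin that activates the aryl hydrocarbon receptor, was injected into the peritoneum at 10 µg/kg, the controls received the solvent DMSO, and spleens were taken after 24 h. The cells of 4 mice were pooled for a group, CD8 T cells were sorted by flow cytometry to a purity over 99%, and the RNA was amplified before hybridisation. The labels do not say whether the number marks a separate pool of mice, a day, an RNA extract or a hybridisation. The p-values thus set a difference against the spread left among these 4 arrays, and that spread may be technical. With 1 array for each combination of treatment and number, a within-treatment difference has no error of its own.

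A resting T cell keeps the transcripts of immediate early genes low. When a signal or a stress reaches the cell, these genes are transcribed within minutes without new protein synthesis, and most of their mRNAs decay quickly. They encode transcription factors such as EGR1 and ATF3, and inhibitors such as RGS and DUSP proteins that shut the signal down again.

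Values are log2 expression levels, and differences are number 2 minus number 1 within a treatment, so that a difference of −1 is a 2-fold lower level. Array medians lay between 5.98 and 6.04, and the median level over all 22626 probe sets that are not controls was 6.01. The defining genes of the sorted cells were above that level in all 4 arrays. Cd8a, the CD8 alpha chain, was at 8.17 and 8.91 in TCDD1 and DMSO1 and at 8.74 and 9.46 in TCDD2 and DMSO2, and Cd3e was at 9.15 and 9.34 and at 9.43 and 9.77. Cd8b1, Cd3d, Cd3g and Cd247 lay between 8.03 and 10.37. In what follows the 2 values of a number are given with TCDD first and DMSO second.

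Over all genes the differences within the treatments were weakly related (Pearson's r = 0.25 across 12393 genes, which are not independent replicates and share the same arrays). Their SD over probe sets was 0.337 within TCDD and 0.301 within DMSO. Of the genes, 3657 (29.5%) were higher and 2392 (19.3%) lower in the arrays numbered 2 within both treatments, by any size, and 5875 ran opposite ways. This balance of small differences turned with the scaling: 2741 were higher and 3240 lower with each array centred on its median, and 3293 and 2799 after a further quantile normalisation. At the 2-fold limit 60 genes (0.484%) were lower and 9 (0.0726%) higher within both, and the lower ones were the more numerous under each of these scalings, at 70 against 8 with centring and 61 against 8 with quantile normalisation. Within TCDD, whatever DMSO showed, 210 genes were 2-fold lower and 38 higher, and within DMSO 93 were lower and 63 higher. The 60 lower genes were 28.6% of the first set and 64.5% of that within DMSO, while the 9 higher genes were 23.7% and 14.3%. Limma with the treatment as a block called 0 of 22626 probe sets between the numbers (0%), and 1361 had an unadjusted p under 0.05. With a variance trend and robust fitting it called 30 of the 22626, and 27 of these were 2-fold apart the same way within both treatments. These fits use the values by which the members were chosen, so their calls are no support for the members.

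**Figure D1:**
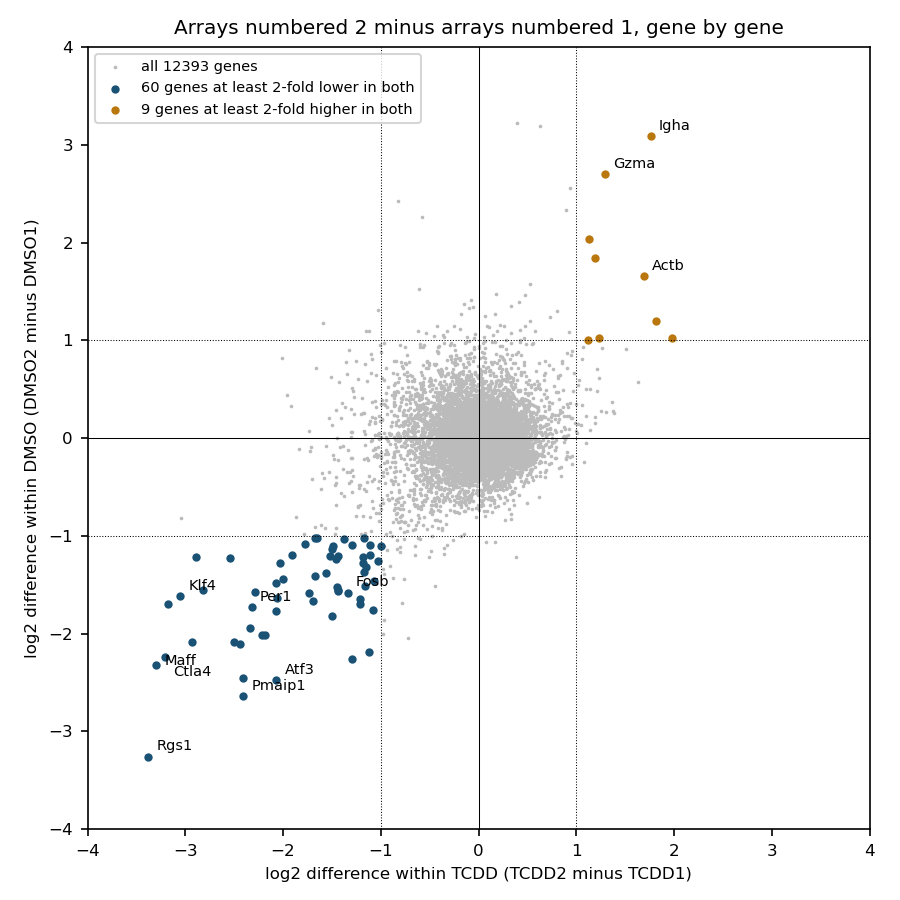
Each point is 1 of 12393 genes, placed by its log2 difference between the arrays numbered 2 and 1 within TCDD (x axis) and within DMSO (y axis). Dotted lines mark the 2-fold limits. The 60 lower genes (blue) reach −3.38 within TCDD and −3.26 within DMSO at Rgs1, and the 9 higher genes (orange) include Igha, Actb and Gzma.

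The 2 arrays numbered 2 lay below both arrays numbered 1 for all 60 lower genes, and above both for all 9 higher genes, so that no member overlapped between the numbers. The rule nearly fixes this outcome, because it asks for a 2-fold difference the same way within both treatments. Among all genes, both arrays numbered 2 lay below for 14% and above for 22.4%. The limit itself fell within a continuous range. Just inside it on the lower side were Frat2, Dusp6 and Klf9, whose smaller differences were −1, −1.02 and −1.02, and just outside were the phosphatase gene Dusp1, the ER chaperone gene Hspa5 and the lysosomal thioesterase gene Ppt1, all at −0.98. On the higher side S100a6 (1), Snx6 (1.02) and Ddit4 (1.02) were just inside, and Jchain (0.94), Nlk (0.93) and Airn (0.93) just outside.

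Transcription factors and their partners made up 18 of the 60 lower genes, a group formed after the values were seen. Their differences ran from −1.03 to −3.30 within TCDD and from −1.02 to −2.48 within DMSO. Not all of them are in the list of immediate early genes described below. Irf4, Irf8, Klf9, Tsc22d1, Tsc22d3 and Ddit3, for example, are outside it. Maff, a small MAF factor that lacks an activation domain, was at 9.38 and 8.22 in number 1 and at 6.08 and 5.90 in number 2, which is 9.85-fold lower within TCDD and 4.99-fold lower within DMSO. Klf10, a zinc finger factor induced by TGF-beta, was at 8.38 and 7.68 against 5.45 and 5.59. For Maff and Klf10 alike, both arrays numbered 2 were under the median level of all probe sets or close to it.

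Atf3, a stress-induced repressor of the ATF family, was at 8.12 and 8.39 in number 1 and at 6.05 and 5.91 in number 2. Klf6 was at 10.69 and 11.07 against 8.51 and 9.06, and Klf4, a factor that restrains T cell proliferation, at 9.15 and 9.50 against 6.10 and 7.88. Klf4 shows that the size could differ between the treatments, with −3.05 within TCDD and −1.62 within DMSO. The orphan nuclear receptor gene Nr4a2 was at 7.06 and 6.60 against 4.84 and 4.59. Egr1, the zinc finger factor induced by growth and antigen receptor signals, was at 11.03 and 12.21 against 9.82 and 10.56. Fosb, an AP-1 subunit, was at 7.46 and 8.88 against 6.12 and 7.30. In Egr1 and Fosb the DMSO array was the higher one within each number, so the lower level with number 2 was seen from different starting levels.

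The clock gene Per1, whose promoter also answers glucocorticoids and cyclic AMP, was at 10.01 and 9.55 in number 1 and at 7.69 and 7.82 in number 2. Bhlhe40, a repressor that acts in the clock and in activated T cells, was at 8.07 and 7.23 against 6.58 and 6.13. Among the 17 measured clock genes these were the only ones 2-fold lower within both treatments, and the list's medians were −0.08 and −0.06. Clock itself was at 6.83 and 6.63 against 6.55 and 6.53, and Arntl at 6.87 and 6.93 against 6.79 and 6.71. Tsc22d3, the glucocorticoid-induced leucine zipper gene, was at 9.71 and 9.67 against 8.53 and 8.39. The remaining factors were Irf4, Irf8, Ddit3, Klf9, Tsc22d1, Mafk and Ier5.

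Immediate early genes as a list were mostly lower in number 2, with exceptions. In a list of 38 such genes, 35 were measured: 27 were lower and 1 higher within both treatments, and 15 were at least 2-fold lower within both. The list was written with earlier results of these data known, and those 15 are members chosen by these same differences. Its counts and medians are therefore a description. The list's medians were −0.94 within TCDD and −1.08 within DMSO, beside 0.07 and −0.01 for all genes. The median of the mean difference was −1.10, but −0.72 when each gene was the mean of its probe sets. Fos, the best known member, was at 10.51 and 12.00 in number 1 and at 10.13 and 12.03 in number 2, and thus ran opposite ways in the treatments. Jund (−0.10 and 0.19), Nr4a3 (0.19 and 0.03), Myc (0.61 and −0.07) and Egr3 (0.31 and −0.12) were not lower either. Jun, the AP-1 partner of FOS, was at 10.52 and 11.97 against 9.99 and 11.04, which gives differences of −0.53 and −0.93. Nr4a1, a reporter of antigen receptor signalling, was at 9.47 and 10.88 against 8.75 and 8.83, so that its difference was −0.72 within TCDD and −2.05 within DMSO.

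Inhibitors of signalling and kinases formed the second group, with 11 lower genes. Rgs1, a GTPase activator that switches off chemokine receptor signalling through G proteins, had the largest difference of all 12393 genes within both treatments. It was at 9.94 and 9.94 in number 1 and at 6.56 and 6.68 in number 2, which is 10.4-fold lower within TCDD and 9.58-fold lower within DMSO. Its relative Rgs2 was at 10.49 and 10.24 against 8.42 and 8.76. Nfkbiz, an atypical inhibitor of NF-kB that binds in the nucleus, was at 9.63 and 9.33 against 6.45 and 7.63. Another probe set of Nfkbiz above the median level differed only by −0.29 and −0.50. The other NF-kB targets moved less: of 18 measured, 10 were lower and 4 higher within both treatments, Nfkbiz alone was 2-fold lower, and the feedback inhibitor gene Nfkbia was at 12.95 and 12.69 against 12.45 and 12.43.

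The phosphatase gene Dusp10, which inactivates the stress kinases p38 and JNK, was at 9.37 and 8.45 in number 1 and at 7.30 and 6.68 in number 2. Dusp6, which acts on ERK, was at 7.54 and 8.17 against 5.87 and 7.15. Gadd45b, an activator of p38 signalling in T cells, was at 10.17 and 9.18 against 8.44 and 7.59, but its 2 other probe sets, both above the median level, differed by −0.54 and −0.02, and by −0.20 and −0.23. Its mean difference was −1.66, and −0.72 as the mean of its probe sets. The EGF receptor inhibitor gene Errfi1 was at 9.58 and 8.60 against 6.76 and 7.05. The kinase gene Pim3 was at 11.33 and 10.81 against 9.87 and 9.57. Its relative Pim1 was at 10.65 and 10.09 against 9.71 and 8.94 and missed the 2-fold limit within TCDD. Rhob, Rrad and Frat2 completed the group.

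**Figure D2:**
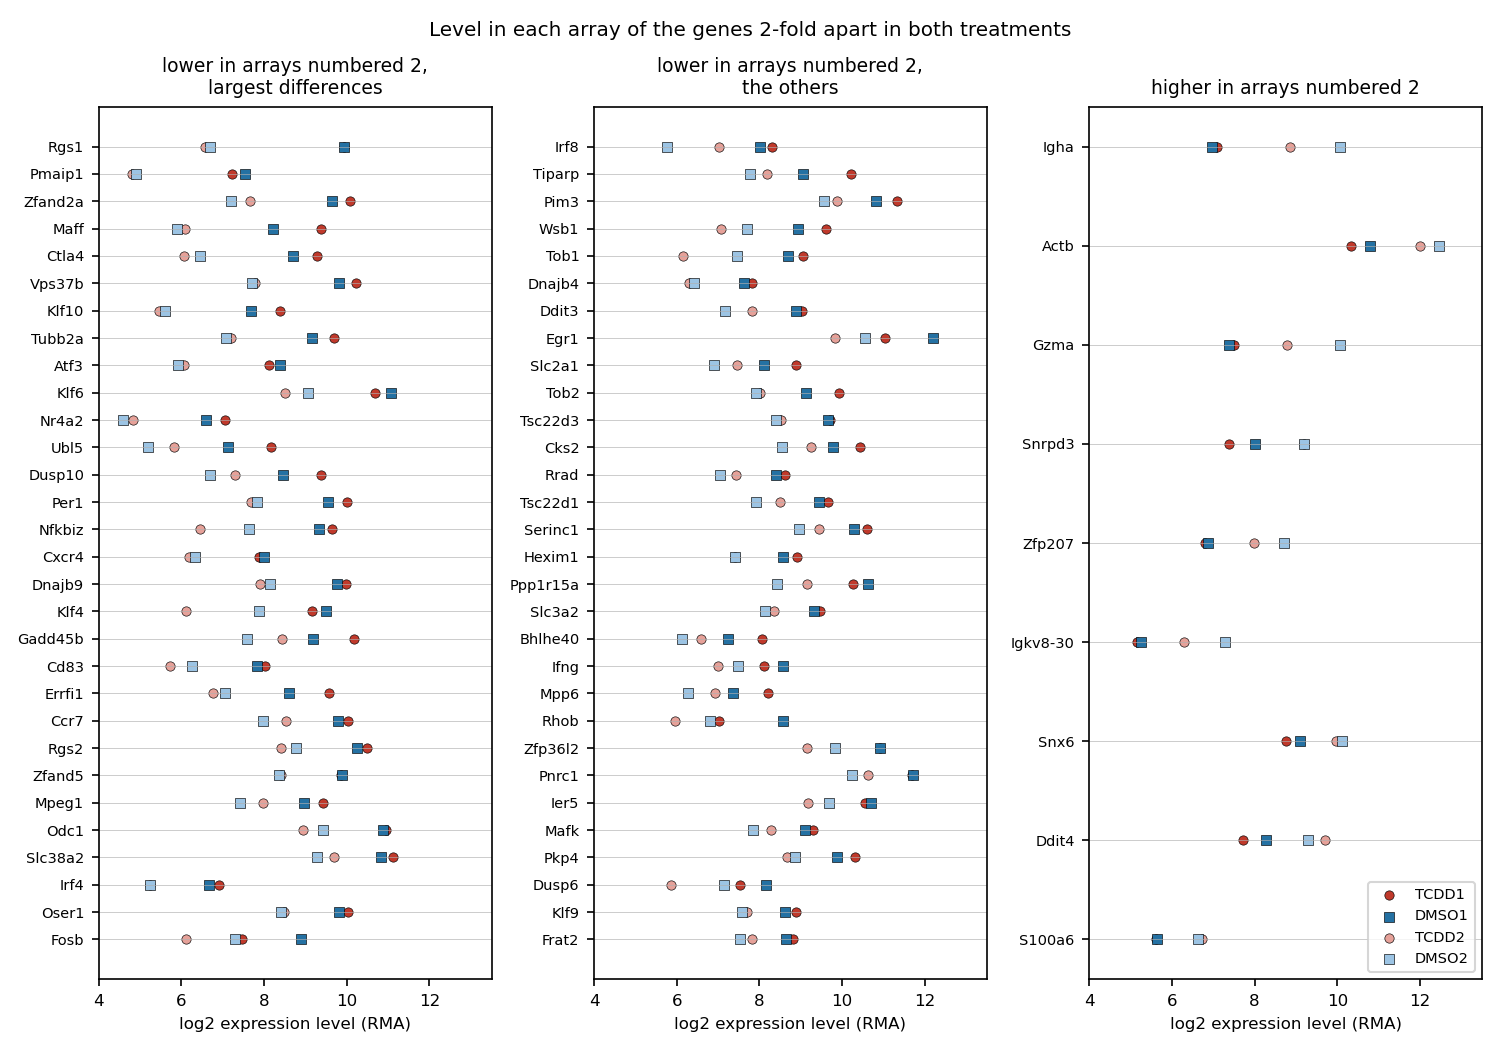
Log2 expression level (x axis) of the 69 genes in each array, with dark symbols for the arrays numbered 1, light symbols for those numbered 2, circles for TCDD and squares for DMSO. In each row the light symbols lie on one side of the dark ones: below for the 60 lower genes in the left and middle panels, above for the 9 higher genes on the right.

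Genes of protein quality control and sorting numbered 7 among the lower genes. Zfand2a, an arsenite-inducible factor that binds the proteasome, was at 10.07 and 9.65 in number 1 and at 7.66 and 7.20 in number 2. Of its 3 other probe sets, all above the median level, the differences were −2.12 and −2.09, −2.42 and −1.75, and −0.25 and 0.04, so one of them was not lower within both treatments. Vps37b, a subunit of the ESCRT-I sorting complex, was at 10.23 and 9.82 against 7.79 and 7.71. Dnajb9, a co-chaperone of the endoplasmic reticulum that is induced by unfolded proteins, was at 9.97 and 9.77 against 7.91 and 8.13. Dnajb4, Zfand5, Ubl5 and the ubiquitin ligase receptor gene Wsb1 were the others.

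Several genes that act in the response to unfolded protein or to amino acid shortage lay on the same side. Ddit3, which encodes the stress factor CHOP, was at 9.03 and 8.88 in number 1 and at 7.82 and 7.18 in number 2, and Ppp1r15a, which directs the removal of phosphate from the translation factor eIF2 alpha, at 10.26 and 10.62 against 9.14 and 8.43. Atf4, the factor that drives both, was at 10.84 and 10.95 against 9.87 and 9.56 and missed the limit narrowly within TCDD. The amino acid transporter genes Slc38a2 (11.12 and 10.83 against 9.68 and 9.27) and Slc3a2 (9.47 and 9.33 against 8.36 and 8.13) are both known targets of ATF4. Over the 24 measured genes of the ER chaperone and unfolded protein list, 11 were lower and 3 higher within both treatments and 2 were 2-fold lower. The pseudokinase gene Trib3, another target of ATF4, was at 6.29 and 6.50 against 6.54 and 6.41 and thus was not lower within both treatments.

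In the list of heat shock genes and chaperones, 10 of 27 measured were lower and 4 higher within both treatments, none of them 2-fold, and the medians were −0.08 and −0.10. Dnajb4, a cytosolic HSP40 outside that list, is among the 60. Hspa4 was at 10.14 and 9.87 in number 1 and at 9.16 and 9.21 in number 2. The inducible HSP70 genes ran opposite ways: Hspa1b was at 9.31 and 9.68 in number 1 and at 8.73 and 11.94 in number 2, and Hspa1a at 6.45 and 6.72 against 5.63 and 9.14. Their highest values were thus in DMSO2 alone.

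Regulators of RNA decay, transcription pausing and translation numbered 6. Tob1, an adaptor to the CCR4-NOT deadenylase that keeps T cells quiescent, was at 9.05 and 8.69 in number 1 and at 6.16 and 7.47 in number 2, and its paralogue Tob2 at 9.92 and 9.12 against 8.01 and 7.92. Zfp36l2, which binds AU-rich elements and destabilises mRNAs, was at 10.92 and 10.92 against 9.14 and 9.84. Hexim1, the inhibitor of the elongation factor P-TEFb, was at 8.92 and 8.56 against 7.42 and 7.42, and Pnrc1 at 11.70 and 11.71 against 10.63 and 10.25. All of these were above the median level in each array, and 66 of all 69 members had a mean above it.

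Immune surface molecules and effector genes formed a group of 6. Ctla4, the inhibitory receptor for CD80 and CD86, was at 9.28 and 8.70 in number 1 and at 6.07 and 6.46 in number 2, which is 9.25-fold and 4.72-fold lower. The chemokine receptor genes Cxcr4 (7.87 and 7.99 against 6.18 and 6.32) and Ccr7 (10.02 and 9.79 against 8.52 and 7.97) guide T cells in bone marrow and lymphoid tissue. Ifng, the main cytokine of CD8 T cells, was at 8.12 and 8.58 against 7.01 and 7.49. Cd83 and Mpeg1, which antigen-presenting cells also express, were the others.

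Cell death and stress genes numbered 3. Pmaip1, which encodes the BH3-only protein NOXA, was at 7.22 and 7.53 in number 1 and at 4.81 and 4.89 in number 2. Its relative Bcl2l11, which encodes BIM, was on the other side, at 8.91 and 8.89 against 9.29 and 9.75. Tiparp, a target of the aryl hydrocarbon receptor that encodes a mono-ADP-ribosyltransferase, was at 10.21 and 9.06 against 8.18 and 7.78. Among the 12 measured genes of the receptor and its battery Tiparp was the one 2-fold lower within both treatments, while 3 were lower and 3 higher by any size.

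Transport and metabolism accounted for 5 and the cytoskeleton, junctions and cell cycle for 4 lower genes. Odc1, the rate-limiting enzyme of polyamine synthesis, was at 10.94 and 10.87 in number 1 and at 8.94 and 9.43 in number 2. Slc2a1, the glucose transporter GLUT1, was at 8.89 and 8.12 against 7.45 and 6.91. Tubb2a, a beta tubulin, was at 9.69 and 9.16 against 7.19 and 7.07, but its other probe set, below the median level, differed by −0.40 and −0.27. Cks2, a subunit of cyclin-dependent kinase complexes, was at 10.44 and 9.77 against 9.26 and 8.55, while the replication genes Rrm2 (7.66 and 7.64 against 6.95 and 7.06) and Top2a (7.45 and 7.62 against 6.97 and 6.94) differed less.

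Of the 60 lower genes, 48 had a promoter sequence in RefSeq (build GRCm38.p6), given there as 250 bases before to 50 bases after a gene's start. The cyclic AMP response element, TGACGTCA, to which CREB and ATF proteins bind, was found in 4 of the 48 (8.33%) and in 2.75% of all 9887 promoters of that length. It reads the same on both strands. These 4 are shown because they carry a motif of the factors named above, with the motif in capitals, each 5′ to 3′ on the minus strand: Ppp1r15a at chr7:45526219-45526518, Tubb2a at chr13:34077959-34078258, Wsb1 at chr11:79254646-79254945 and Zfand2a at chr5:139484442-139484741.
Ppp1r15a: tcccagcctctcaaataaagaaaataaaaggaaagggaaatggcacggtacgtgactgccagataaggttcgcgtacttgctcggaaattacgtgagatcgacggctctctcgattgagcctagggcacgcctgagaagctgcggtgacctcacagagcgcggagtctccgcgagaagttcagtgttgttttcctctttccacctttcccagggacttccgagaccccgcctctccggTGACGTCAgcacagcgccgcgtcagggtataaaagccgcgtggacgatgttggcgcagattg
Tubb2a: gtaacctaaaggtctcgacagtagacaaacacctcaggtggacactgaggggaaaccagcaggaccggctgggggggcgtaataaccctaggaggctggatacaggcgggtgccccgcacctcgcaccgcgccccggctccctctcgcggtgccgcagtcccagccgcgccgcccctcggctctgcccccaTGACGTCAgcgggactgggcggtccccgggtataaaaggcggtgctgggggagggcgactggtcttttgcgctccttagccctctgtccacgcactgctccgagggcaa
Wsb1: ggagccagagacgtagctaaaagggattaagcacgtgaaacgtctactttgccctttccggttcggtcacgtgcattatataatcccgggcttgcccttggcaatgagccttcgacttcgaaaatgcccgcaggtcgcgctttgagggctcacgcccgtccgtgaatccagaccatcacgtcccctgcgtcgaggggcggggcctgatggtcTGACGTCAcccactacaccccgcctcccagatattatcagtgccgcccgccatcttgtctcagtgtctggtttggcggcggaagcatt
Zfand2a: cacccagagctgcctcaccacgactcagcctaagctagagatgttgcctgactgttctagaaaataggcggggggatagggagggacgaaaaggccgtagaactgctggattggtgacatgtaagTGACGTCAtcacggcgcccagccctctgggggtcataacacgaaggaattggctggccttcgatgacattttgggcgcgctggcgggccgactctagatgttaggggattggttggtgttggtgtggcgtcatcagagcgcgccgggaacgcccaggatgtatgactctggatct
The element began 12 bases before the start in Ppp1r15a, 59 in Tubb2a, 38 in Wsb1 and 125 in Zfand2a. Its core TGACG, which each full element contains, was found on either strand in 21 of the 48 promoters (43.8%) against 28.4% of all. The TATA box TATAAA was in 12 (25%) against 10.1%, the GC box GGGCGG in 33 (68.8%) against 57.5%, the E box CACGTG in 8 (16.7%) against 9.33%, and the heat shock motif TTCNNGAA in 1 (2.08%) against 7.10%, each searched on both strands. None of the 6 higher genes with a promoter held the full element or the TATA box. These are counts of letters in a window and were not tested.

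The 9 genes higher in the arrays numbered 2 belonged to several functions. Igha, the constant region of IgA, was at 7.09 and 6.97 in number 1 and at 8.85 and 10.06 in number 2, which is 3.39-fold higher within TCDD and 8.52-fold higher within DMSO. Its other probe sets gave 2.94 and 3.39, and 1.47 and 2.07. The light chain segment gene Igkv8-30 was at 5.16 and 5.25 against 6.29 and 7.29, and within both genes DMSO2 was the highest array. Probe sets for immunoglobulin segments can share sequence, so their signals cannot be assigned to 1 segment with certainty.

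Gzma, the granzyme A gene of cytotoxic granules, was at 7.49 and 7.37 in number 1 and at 8.78 and 10.07 in number 2. Of 25 measured cytotoxic genes, 11 were higher and 3 lower within both treatments. Klrg1, a receptor of differentiated effector cells, was at 8.04 and 7.98 against 8.60 and 8.95, and Gzmb at 6.95 and 6.91 against 7.65 and 7.33. Ifng and the granule proteoglycan gene Srgn (11.05 and 10.98 against 10.06 and 10.36) were on the other side.

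Actb, the cytoplasmic beta actin gene, was at 10.32 and 10.79 in number 1 and at 12.01 and 12.45 in number 2. A further probe set of Actb ran the other way, at 8.88 and 9.17 against 8.27 and 8.86. The array's 3 control probe sets for this mRNA followed the first: the 3′ one was at 11.22 and 11.62 against 12.74 and 13.07, the middle one at 8.56 and 9.17 against 10.57 and 10.99, and the 5′ one at 7.61 and 7.93 against 9.40 and 9.55. Ddit4, an inhibitor of mTORC1 that glucocorticoids and hypoxia induce, was at 7.73 and 8.28 against 9.71 and 9.30, opposite in direction to Per1 and Tsc22d3 of the same glucocorticoid list. That list had 9 of 18 genes lower and 3 higher within both treatments, with medians of −0.69 and −0.165.

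Snrpd3, a core protein of spliceosomal snRNPs, was at 7.37 and 8.00 in number 1 and at 9.19 and 9.20 in number 2, while its other probe sets differed by 0.28 and 0.05, and by 0.15 and 0.09. The splicing list pointed the other way within TCDD: 20 of 56 genes were lower and 7 higher within both treatments, with medians of −0.275 and 0.045. Zfp207, a mitotic and splicing factor, was at 6.79 and 6.86 against 7.98 and 8.70. Another probe set of Zfp207 above the median level ran opposite ways in the treatments, at −0.20 and 1.49. Snx6, a sorting nexin of the retromer, was at 8.75 and 9.10 against 9.98 and 10.12, but at 7.84 and 7.40 against 7.01 and 6.80 in another probe set above the median level. S100a6 was at 5.61 and 5.63 against 6.73 and 6.63.

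Other probe sets bear on the lower genes as well. For 31 of the 60 another probe set was present, and 34 such probe sets were above the median level. Of these, 24 were lower within both treatments, 8 of them 2-fold, 4 ran the opposite way within both and 6 did neither. Klf9 (−2.34 and −2.85), Odc1 (−2.63 and −1.75), Rgs2 (−1.84 and −2.41) and Tsc22d3 (−1.11 and −1.86) had a further probe set past the 2-fold limit. The opposite ones belonged to Ubl5 (0.20 and 0.39), Tob2 (0.14 and 0.01) and Zfp36l2 (0.13 and 0.08, and 0.20 and 0.06). Probe set names ending in _s_at or _x_at mark possible hybridisation to other genes, while _a_at marks transcripts of one gene. Without the former, an alternative added after seeing the data, 53 of the 60 lower and 8 of the 9 higher genes kept their place. The mean difference of Zfand5 was then 0.06, that of Tob2 −0.035, that of Gadd45b −0.215 and that of Tubb2a −0.335. It was −0.86 for Pim3, −1.02 for Tsc22d1 and −1.425 for Tiparp.

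Below the 2-fold limit, some lists held more higher than lower genes or the reverse, while many of their genes ran opposite ways in the treatments. Of 69 measured genes of the respiratory chain and ATP synthase, 28 (40.6%) were higher and 2 (2.90%) lower within both treatments and 39 were neither, against 29.5% and 19.3% of all genes. With centred arrays 25 were higher and 3 lower, and after quantile normalisation 31 and 3. The medians were 0.31 within TCDD and 0.04 within DMSO. Atp5e, a subunit of the ATP synthase, was at 7.89 and 8.01 in number 1 and at 8.63 and 9.02 in number 2, and Uqcrh of complex III at 8.01 and 7.93 against 8.50 and 8.56. Of mitochondrial ribosomal proteins 28 of 65 were higher, 4 lower and 33 neither (25 higher and 9 lower with centred arrays), with medians of 0.24 and 0. Mrpl51 was at 7.49 and 8.34 against 8.47 and 9.01. Of cytosolic ribosomal proteins 14 of 41 were higher and 7 lower (11 and 11 after quantile normalisation), with medians of 0.08 and −0.02.

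Proteasome subunits (19 of 39 higher, 5 lower), interferon response genes (14 of 27 higher, 4 lower) and antioxidant genes (10 of 21 higher, 2 lower) also had more higher than lower members. The interferon-induced GTPase gene Ifi47 was at 9.33 and 10.13 in number 1 and at 10.28 and 10.98 in number 2, and its relative Igtp at 7.96 and 8.42 against 8.73 and 8.95. On the lower side were ubiquitin ligases and proteases (16 of 38 lower, 4 higher), chromatin regulators (16 of 40 lower, 5 higher) and the 7 measured histone genes (4 lower, 0 higher). Birc2, a ubiquitin ligase that restrains NF-kB, was at 8.52 and 8.10 against 6.82 and 7.68, and the bromodomain gene Brd2 at 9.73 and 9.64 against 8.84 and 8.64. For the respiratory chain, the mitochondrial ribosome, the ubiquitin genes and the splicing genes, the median within DMSO was within 0.05 of zero, so their lean was mostly within TCDD.

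**Figure D3:**
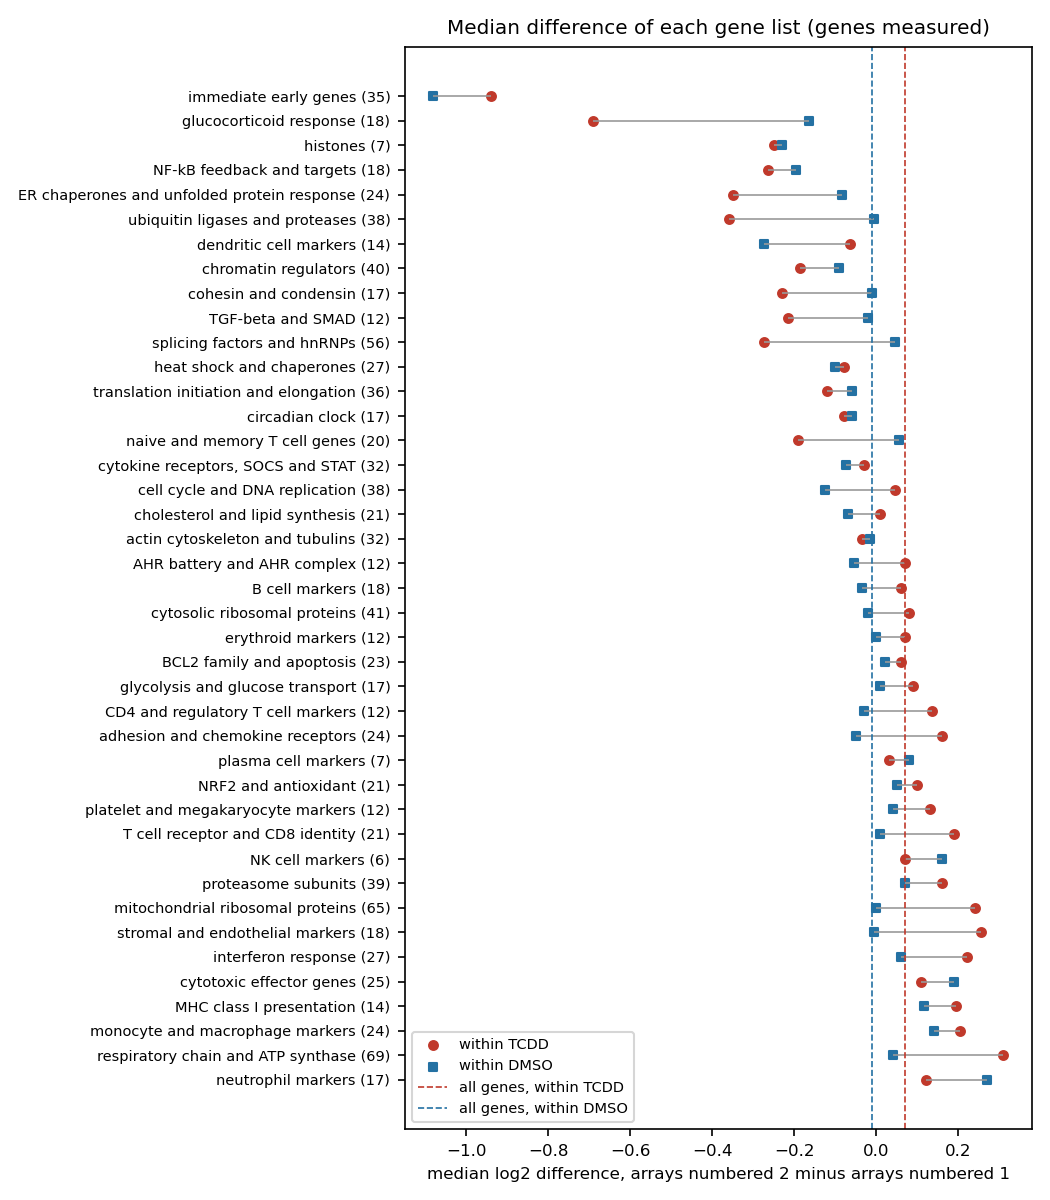
Median log2 difference between the arrays numbered 2 and 1 (x axis) of each of 41 gene lists, within TCDD (red circles) and within DMSO (blue squares), with the number of measured genes in brackets and dashed lines at the medians of all genes. Immediate early genes have the lowest medians, at −0.94 and −1.08. The lists were written with earlier results of these data known, and 15 of the 35 measured immediate early genes were chosen by these same differences.

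Genes of T cell identity were mixed. Of 21 measured, 8 were higher and 5 lower within both treatments, with medians of 0.19 and 0.01, and none reached the 2-fold limit within both. Cd28, the costimulatory receptor that competes with CTLA4 for its ligands, was at 9.10 and 9.62 in number 1 and at 7.90 and 8.64 in number 2. Ptprcap, a partner of CD45, was on the other side at 8.48 and 9.23 against 10.11 and 9.80. Of naive and memory genes, 8 of 20 were lower and 3 higher, with the 2-fold members Cxcr4 and Ccr7 as above.

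Markers of other spleen cells also differed between the numbers, although the label gives a purity over 99%. In a bulk sample fewer cells of a type and less RNA per cell cannot be told apart. The MHC class II genes that present antigen in B cells, dendritic cells and macrophages were lower in number 2. Cd74, the invariant chain, was at 9.04 and 8.98 in number 1 and at 8.06 and 6.98 in number 2, H2-Aa at 11.30 and 10.94 against 10.42 and 9.51, and H2-Ab1 at 9.62 and 9.52 against 8.65 and 7.66. In each of them DMSO2 was the lowest array.

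The defining B cell genes did not follow. Cd79a was at 5.46 and 5.67 in number 1 and at 5.83 and 5.60 in number 2, Ms4a1 at 5.68 and 5.81 against 5.83 and 5.83, and Ighm at 10.41 and 10.73 against 11.02 and 11.03. Over the 18 measured B cell markers 7 were higher and 6 lower within both treatments (3 and 6 with centred arrays), and their mean level was 7.01 and 7.05 in number 1 and 6.96 and 6.67 in number 2. Cd79a and Ms4a1 were below the median level in every array, and log2 values have no true zero at which a gene could be called absent.

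Of 14 dendritic cell markers, 7 were lower and 2 higher within both treatments, with mean levels of 6.89 and 6.84 in number 1 and 6.60 and 6.31 in number 2. Irf8, a factor that dendritic cells need, was at 8.31 and 8.02 against 7.02 and 5.76, and Cd83, which marks mature dendritic cells and activated lymphocytes, at 8.02 and 7.82 against 5.73 and 6.25. Cst3 was at 9.92 and 10.16 against 9.47 and 8.65, while Itgax, Zbtb46 and Xcr1 differed by at most 0.21. Irf4, Irf8, Cd83, Mpeg1 and Ctla4 are the 5 lower genes that stand in a marker list of another cell type, and 55 stand in none. The 10 marker lists hold between 6 and 24 measured genes each, beside 12393 genes, so nearly all genes stand in no marker list. Marker genes are thus a larger share of the lower genes than of all genes. The part of other cells in these differences was not tested.

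The neutrophil and macrophage lists held more higher than lower genes. Among plasma cell genes only some were high: Jchain, which joins IgA and IgM chains, was at 5.66 and 5.48 in number 1 and at 6.60 and 8.04 in number 2. S100a8, a calprotectin subunit of neutrophils, was at 5.55 and 5.45 against 5.94 and 8.67, so that its high value was in DMSO2 alone. Of 17 neutrophil markers 12 were higher and 2 lower within both treatments, with mean levels of 5.71 and 5.70 in number 1 and 5.87 and 6.28 in number 2. Csf1r, the growth factor receptor of macrophages, was at 7.92 and 7.35 against 8.72 and 8.65, and C1qa at 5.87 and 5.95 against 6.77 and 6.67. Of 24 monocyte and macrophage markers 14 were higher and 3 lower, with mean levels of 6.26 and 6.12 against 6.40 and 6.36, and Mpeg1, the pore-forming protein perforin-2 of phagocytes, was opposite to them at 9.42 and 8.97 against 7.98 and 7.42.

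For plasma cells 3 of 7 markers were higher and 1, Irf4, lower (3 and 3 with centred arrays, mean levels 6.10 and 6.04 against 6.00 and 6.29), while Xbp1, Prdm1 and Tnfrsf17 were neither within both treatments. The counts were 3 of 6 higher and 1 lower for NK cells (5.61 and 5.53 against 5.69 and 5.70) and 6 of 12 and 3 for CD4 and regulatory T cells (6.85 and 6.80 against 6.71 and 6.68). Foxp3, the defining factor of regulatory T cells, was at 4.50 and 4.73 against 4.42 and 4.58, under the median level throughout, and Cd4 at 6.80 and 7.04 against 7.23 and 7.06. The erythroid, platelet and stromal lists had 3 of 12, 7 of 12 and 8 of 18 genes higher and 2, 2 and 3 lower, and no 2-fold member.

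**Figure D4:**
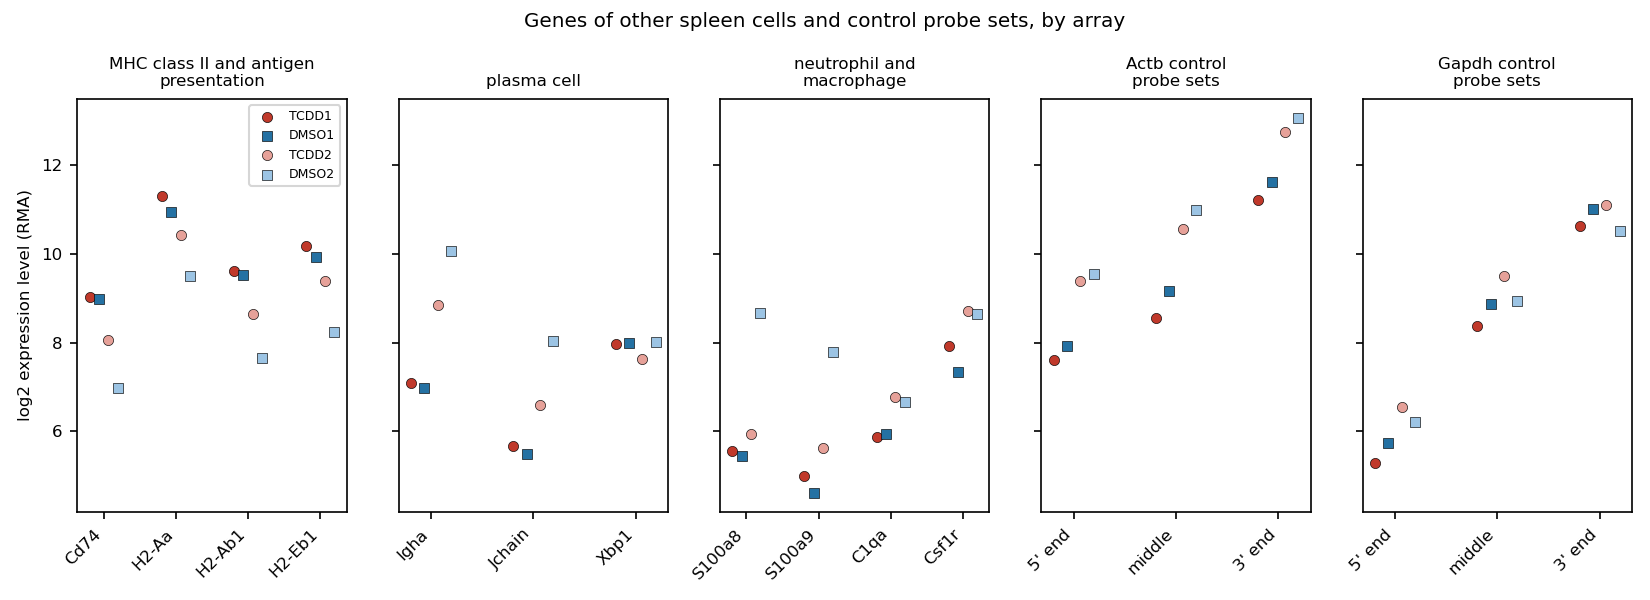
Log2 expression level (y axis) in each array of genes of other spleen cells and of the Actb and Gapdh control probe sets at the 5′ end, middle and 3′ end of the mRNA. Dark symbols are arrays numbered 1, light symbols arrays numbered 2, circles TCDD and squares DMSO. MHC class II genes are lower and Igha and Jchain higher in the arrays numbered 2, and S100a8 and S100a9 are high in DMSO2.

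Controls for RNA and labelling differed between the numbers too. The gap between the 3′ and 5′ control probe sets of Gapdh, which widens with RNA breakage or incomplete amplification, was 5.35 and 5.27 in number 1 and 4.56 and 4.30 in number 2. For Actb the gap was 3.61 and 3.69 against 3.34 and 3.52, and for 18S ribosomal RNA it was 2.26 and 2.48 against 1.23 and −0.22. This 3′ to 5′ gap was smaller in both arrays numbered 2 for each of these RNAs. The gap between 3′ and middle probe sets was also smaller for Gapdh and Actb, whereas for 18S ribosomal RNA it was 1.20 and 1.71 in number 1 against 1.28 and 0.82 in number 2. The spiked bacterial transcripts did not order the arrays by number: the 18 hybridisation controls averaged 9.19 and 8.45 in number 1 and 9.05 and 9.60 in number 2, and the 24 poly-A controls 6.45 and 5.90 against 5.77 and 6.71. The part of RNA quality and labelling in the differences between the numbers was not tested.

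The contrast of TCDD with DMSO was not used to choose the genes. Limma called 0 of 22626 probe sets for it (0%), with 439 at an unadjusted p under 0.05, and 0 of the 69 members among either. That fit counts the difference between the numbers, by which the members were chosen, as error, so the 0 for members says nothing about TCDD. With the array number as a replicate block, 20 of the 60 lower and 1 of the 9 higher members had an unadjusted p under 0.05 and 0 were called. Among all 12393 genes 346 had such a p and 0 were called. The error of that fit is how far the differences that chose the members disagree between the treatments, so it is not independent of the choice. With 2 arrays against 2, an exact permutation test cannot give a two-sided p below 0.333. The median difference, TCDD minus DMSO, was 0.18 for the 60 lower genes and −0.395 for the 9 higher ones, beside 0.01 for all genes. It was 0.245 between the arrays numbered 1 and 0.085 between those numbered 2 for the lower genes. Within both numbers TCDD was the higher array for 29 of the 60 and the lower one for 10. Among all 12393 genes TCDD was the higher array within both for 2801 and the lower one for 2505.

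Among single members, Fosb differed by −1.30 between TCDD and DMSO (95% limits from limma −3.08 and 0.48), the GTPase gene Rhob by −1.20 (−2.97 and 0.57) and Gadd45b by 0.92 (−1.09 and 2.93). For Rgs1 it was −0.06 with limits of −4.05 and 3.93. These wide limits come from a fit in which the difference between the numbers counts as spread. The difference between the numbers was the larger one within TCDD for 38 of the 60 lower genes and within DMSO for 22. Among all 12393 genes it was the larger one within TCDD for 6967 and within DMSO for 5120.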

How the data were processed

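Expression was measured on 4 Affymetrix arrays of sorted splenic CD8 T cells. The deposited table gives log2 expression values, made by the authors with RMA (version not stated) per the submitters' processing notes. RMA usually combines background correction, quantile normalisation and probe summaries, and it compresses differences of dim probe sets. The values, from 3.09 to 14.62, show the log2 scale. Of 22690 probe sets, 64 controls were left out of the tests. Symbols came from the platform annotation, updated through RefSeq (GRCm38.p6): 20380 probe sets had 1 symbol, 691 several and 1555 none. Each gene is its probe set with the highest mean.

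Limma 3.58.1 in R 4.3.3 (lmFit, eBayes, Benjamini-Hochberg, threshold 0.05) was fitted over 22626 probe sets. The fit was also run on simulated data with independent errors. That run held no effect shared by a whole array, so it does not show how reliable the calls are here. The number of arrays limits the precision. The members and all 41 lists (31 of functions, 10 of markers, 1203 entries) were chosen with earlier results of these data known, and the function groups of members after their values were seen. The rule for named genes takes, above the median level, the 20 largest same-direction differences on each side, up to 4 per list, the 3 genes on each side of the limit, and control probe sets. Genes named outside it, among them Fos, Hspa1a, Hspa1b, Trib3, Nfkbia, Cd79a, Ms4a1 and Foxp3, were chosen after their values were seen. Alternatives were other scalings, filters, fold limits, gene means, probe sets without a letter before _at, blocks, a variance trend with robust fitting and each array left out. Counts of differences of any size under the scalings, and fits without _s_at and _x_at probe sets, were added after seeing the data.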

Additional observations from a re-analysis of the deposited data

Results flagged for a closer look

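Some differences between the numbers ran one way within TCDD and the other way within DMSO. How far the treatments differ in this was not tested, and each side rests on 1 array against 1.

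At the 2-fold limit this held for 4 genes. Canx, a lectin chaperone of the endoplasmic reticulum, differed by −1.03 within TCDD and 1.31 within DMSO. Mfsd14a, a membrane transporter gene, differed by −1.15 and 1.10. Slmap, a membrane protein gene, differed by −1.12 and 1.09. Vbp1, a prefoldin subunit gene, differed by −1.59 and 1.18. In all 4, TCDD2 was the lowest and DMSO2 the highest array.

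Gene lists with medians on opposite sides had small values on at least 1 side. Within TCDD and within DMSO the medians were −0.19 and 0.055 for naive and memory T cell genes, 0.08 and −0.02 for cytosolic ribosomal proteins, and −0.275 and 0.045 for splicing factors. They were 0.045 and −0.125 for cell cycle genes, 0.01 and −0.07 for cholesterol synthesis, and 0.07 and −0.055 for the AHR battery. Adhesion and chemokine receptors were at 0.16 and −0.05, B cell markers at 0.06 and −0.035, CD4 and regulatory T cell markers at 0.135 and −0.03, and stromal and endothelial markers at 0.255 and −0.005.

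The spiked controls ran opposite ways as well. The hybridisation spikes differed on average by −0.141 within TCDD and 1.14 within DMSO, and the poly-A spikes by −0.672 and 0.81.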

How the results depend on the processing

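Across the alternatives the count of lower genes stayed between 48 and 86, and that of higher genes between 6 and 9, except as follows. The lower count was 39 with gene means (37 of them among the 60), 165 at 1.5-fold and 19 at 3-fold. The higher count was 4 without probe sets that carry a letter before _at, those of one gene's transcripts (_a_at) included (3 of them among the 9), 41 at 1.5-fold, 2 at 3-fold and 20 by the mean difference. Between the numbers limma called 30 probe sets with a variance trend and robust fitting (24 lower and 6 higher), 1 without the treatment block (Rgs1), and 0 otherwise. For TCDD against DMSO it called 0 throughout. With the array number as a replicate block it called 0 as well, with 612 at an unadjusted p under 0.05, 21 of them members. The error of that fit is the disagreement between the differences that chose the members. With each array left out in turn it called 0 for both contrasts.

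Signs turned for 4 genes without letter-marked probe sets: Actb (−0.46), Snx6 (−0.715), Tsc22d1 (0.11) and Zfand5 (0.06). Without _s_at and _x_at probe sets alone, added after seeing the data, Zfand5 (0.06) turned and Actb (1.68), Snx6 (1.12) and Tsc22d1 (−1.02) did not. List medians near 0 turned too. Cohesin and condensin went to −0.025 with centring, −0.03 without _s_at and _x_at probe sets, −0.015 with quantile normalisation, and −0.23 to −0.01 with an array left out. Glycolysis went to 0.02 with quantile normalisation and 0.01 to 0.09 with an array left out. Actin and tubulins went to −0.035 with centring, −0.04 without letter-marked probe sets, −0.045 without _s_at and _x_at ones, −0.041 with gene means and −0.035 to −0.015 with an array left out. BCL2 genes (−0.01) and erythroid markers (−0.0175) turned with centring, erythroid markers (−0.022) with quantile normalisation, and NK markers (−0.02) without letter-marked probe sets. The cause was not tested.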

Other observations

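The likeness of the differences within TCDD and within DMSO depended on the level of the probe set. When 22626 probe sets were put in 5 groups of nearly equal size by mean level, Pearson's r across the probe sets of a group was 0.046, 0.035, 0.145, 0.201 and 0.348 from the lowest to the highest group. The highest group, with means from 7.54 to 14.61, held 61 of the 84 probe sets that were 2-fold lower within both treatments and 14 of the 21 that were 2-fold higher. Probe sets are not independent replicates, and these values are a description. Of these 105 probe sets 91 had 1 symbol, 8 had several and 6 were unnamed here.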
